A study of Mus musculus with 180 samples.

Results

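The genes described here are the mouse zinc finger genes whose symbols run from Zfp700 to Zfp999. They were taken by symbol from the feature list of the single-cell embryoid body library, with an optional letter after the number, where the embryonic stem cell (ESC) or the epiblast-like cell (EpiLC) RNA table held them. Zfp874a, Zfp874b, Zfp729a, Zfp729b, Zfp712 and Zfp708 were left out. The rule gave 115 of 13710 genes. In ESCs 109 of them were measured and in EpiLCs 113, with 107 in both. Zfp773 and Zfp974 stood only in the ESC table, and Zfp768, Zfp781, Zfp791, Zfp943, Zfp963 and Zfp972 only in the EpiLC table.

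Most of these genes encode KRAB zinc finger proteins. The C2H2 fingers of such a protein read a DNA sequence, and its KRAB domain recruits TRIM28, a co-repressor that brings the H3K9 methyltransferase SETDB1, HP1 proteins and other repressors. Transposable elements are the best known targets, and in pluripotent cells this system keeps many endogenous retroviruses silent. The genes arose by repeated duplication, so they lie in tandem clusters and neighbours can be nearly identical in sequence. A pattern search of the coding sequences found a KRAB box in 94 of the 115 genes and none in 21. It used fixed patterns in the first part of each protein, so a variant or later box would be missed. The number of fingers ran from 0 to 23 with a median of 11, and 6 genes, among them Zfp703, Zfp750 and Zfp839, had none that met the pattern.

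The series asks how strain background shapes the transcriptome and chromatin of pluripotent mouse cells. RNA was measured in ESCs and EpiLCs of C57BL/6J (B6; lines B41, B44 and B51), of DBA/2J (D2; lines D29, D55 and DAC203), and of 33 BXD lines, from inbred strains that descend from a B6 by D2 cross. The F1 hybrid of the parents was measured in ESCs (lines F116, F117 and F124). ESCs were kept naive and EpiLCs were made from them in culture, with no genetic change and no drug group in either. Each line gave 1 library per assay and state, so a strain is replicated by separate lines. Whether these came from different embryos was not stated in the labels, and p-values measure the spread between these lines. RNA values are normalized signals that sum to between 875000 and 1230000 per library, and their read depth was not recovered here. The tables of the 2 states were normalized separately, so only strain differences, never levels, are compared between ESCs and EpiLCs. In bulk RNA, fewer cells that express a gene and less RNA per cell cannot be told apart.

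The summed signal of 13 naive markers lay between 4051 and 4323 in B6 ESCs and between 4084 and 4232 in D2 ESCs. That of the EpiLC markers lay between 3185 and 3940 in B6 EpiLCs and between 3536 and 3622 in D2 EpiLCs. Core pluripotency markers summed to 2861 to 3022 in B6 ESCs and to 2461 to 2590.2 in D2 ESCs. The markers of the other state summed to more in D2. In ESCs the EpiLC markers summed to 242 to 307 in B6 and 457 to 534 in D2, with 7 of 10 higher and none lower. In EpiLCs 11 of the naive markers summed to 179 to 189.5 in B6 and 247 to 277 in D2, with 7 higher and 1 lower. Their part in the strain differences was not tested. Of 19 feeder fibroblast markers, 18 were in the ESC table, with summed signals of 3918 to 5352 in B6 and 3892 to 4347 in D2. Col1a1, a collagen gene of fibroblasts, read 481 to 781 there. In EpiLCs the 14 of them in that table summed to 349 to 438 in B6 and 479 to 646 in D2, and their part was not tested. Gata6 and Sox17, which define primitive endoderm, were in neither RNA table, but other markers of that lineage summed to more in D2. The sum over 5 of 11 was 159 to 185 in B6 and 224 to 285 in D2 ESCs, and over 7 of 11 it was 63.8 to 81.5 in B6 and 82.9 to 237 in D2 EpiLCs, and its part was not tested either. The D2 line DAC203 stood apart in ESCs. It read below the mean of the other D2 lines for 92 of the 109 zinc finger genes, with a median deviation from that mean of −0.49 on the log2 scale, against 0.00 over all genes. For D55 that deviation was 0.33. In EpiLCs the median deviations of the D2 lines lay between −0.10 and 0.16. ESC counts of the main sets are therefore given without it as well, and of the 41 ESC calls with all lines 36 held without it. The 5 lost were Zfp719, Zfp760, Zfp830, Zfp930 and Zfp944, and 4 other genes gained a call.

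The zinc finger genes were expressed at modest levels with a wide range. Mean signals ran from 1.56 to 140.2 in ESCs (median 10.6) and from 0.891 to 188 in EpiLCs (median 11.6). Per kilobase of annotated transcript, Zfp740 stood first in both states with 95.0 and 107, against medians of 3.77 and 3.67. The length was that of 1 transcript per gene, chosen by its coding sequence, and was only 0.989 kilobases for Zfp740. Zfp978, a gene of the chromosome 4 cluster, followed with 50.7 and 50.9 per kilobase, and its neighbour Zfp980 with 30.8 and 47.0. Zfp706, known for a role in the exit of ESCs from self-renewal, read 30.4 and 40.4 per kilobase. Zfp706 was also among the steadiest members between strains, with 132, 141 and 133 in the B6 ESC lines and 132, 138 and 130.5 in the D2 lines. Its strain difference was −0.02 ± 0.07 (SE) in both states, with overlapping lines in each. At the other end Zfp786 read 0.490 per kilobase in ESCs and Zfp703, a transcriptional corepressor, 0.362 in EpiLCs.

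More of these genes were lower than higher in D2, in both states. Differences are written as D2 minus B6 on log2(value + 1), a scale that understates the change of low genes, and were tested with limma at a Benjamini-Hochberg adjusted p under 0.05 over all genes. In ESCs 41 of 109 passed, where 37.6% of all genes tested passed, so the total stood at the background. The split was 10 higher and 31 lower, beside 17.3% of all genes called higher and 20.3% called lower. In EpiLCs 69 of 113 passed, where 57.5% of all genes passed. Of these, 13 were higher and 56 were lower, beside 28.5% and 29% of all genes. The median difference of the zinc finger genes was −0.27 in ESCs and −0.32 in EpiLCs, while that of all genes was −0.04 and 0.00. Lines of B6 and D2 did not overlap for 50 of 109 genes in ESCs, where 51.4% of all genes did so, and for 76 of 113 in EpiLCs, where the share was 63.7%. Without DAC203 the ESC count was 13 higher and 27 lower and the median −0.09. Over all genes that fit called 2353 higher and 2860 lower of 12689, with a median of −0.03. The share of members called lower thus stood near that of all genes. Leaving out the other libraries of the ESC comparison in turn gave counts between 19 and 49. Without B44, the smallest, 4 were higher and 15 lower, beside 1628 and 1806 of 12693 over all genes.

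Between the states the calls overlapped in part. Of the 107 genes tested in both, 27 passed in both, 22 of them lower in D2 in both states, 3 higher in both and 2 in opposite directions. Over all genes 24.3% passed in both, 10.3% lower in both, 8.66% higher in both and 5.28% in opposite directions, so the total stood at the background. The 3 higher in both were Zfp809, Zfp961 and Zfp830, which read 16.4 to 17.6 in B6 and 20.7 to 22.6 in D2 ESCs and 22.7 to 24.7 and 27.7 to 30.9 in EpiLCs. Without DAC203 the ESC difference of Zfp830 was no call (0.27, limma adjusted p = 0.0551). A further 29 passed in neither state. Genes with a KRAB pattern had 5 higher and 29 lower of 89 in ESCs and 8 higher and 52 lower of 93 in EpiLCs. Their medians were −0.32 and −0.38. Over all genes 17.3% were called higher and 20.3% lower in ESCs, and 28.5% and 29% in EpiLCs. A chromosome 4 cluster of 16 genes, all with the pattern, held 10 of the 29 lower ESC calls. Without DAC203 the ESC split of the KRAB set was 8 to 25 and the median −0.17. Members without the pattern split 5 to 2 of 20 in ESCs and 5 to 4 of 20 in EpiLCs, with medians of 0.02 and −0.11. This difference between the sets was not tested, since the genes of a set share clusters and sequence. Genes without the pattern may still encode a KRAB box that the search missed.

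**Figure D1:**
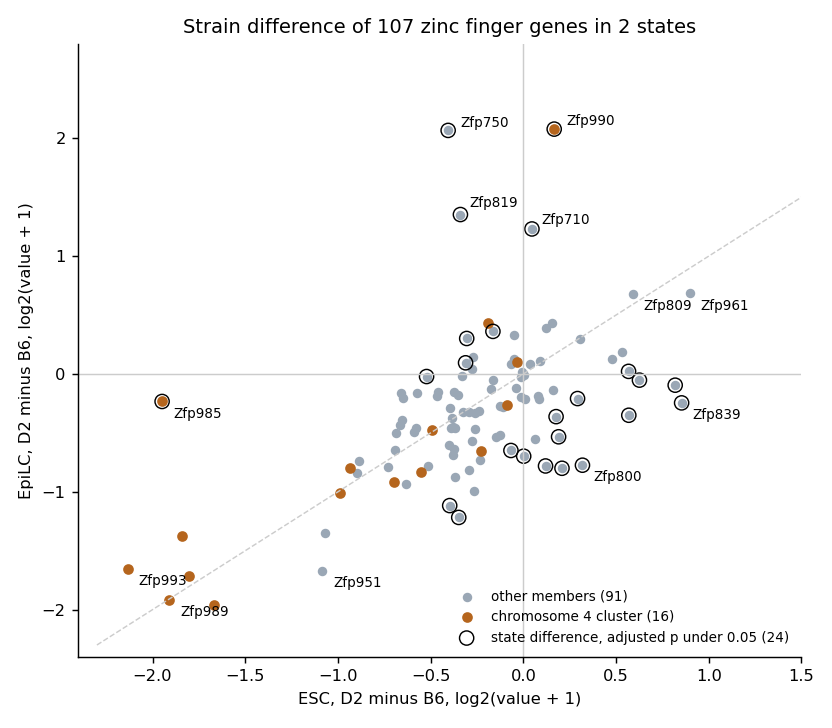
Strain difference (D2 minus B6, log2(value + 1), means of 3 lines each) of the 107 zinc finger genes tested in both states, with ESCs on the x axis and EpiLCs on the y axis; the dashed line marks equal differences. Most genes of the chromosome 4 cluster (brown) lie at the lower left, and the 24 circled genes had strain differences that differed between the states.

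Most of the largest differences in both states lay in 1 cluster on distal chromosome 4. It holds 16 of the genes between chr4:145510759-147848366 (mm10), all with a KRAB pattern, and is one of the large zinc finger gene clusters of the mouse. In ESCs 10 of the 16 were lower in D2 and none was higher, with a median of −0.82 (without DAC203, 10 lower, 1 higher and −0.53). In EpiLCs 11 were lower and 2 were higher, with the same median of −0.82. Outside chromosome 4 the counts were 10 higher and 21 lower of 93 in ESCs and 11 higher and 45 lower of 97 in EpiLCs. Over all genes 17.3% were called higher and 20.3% lower in ESCs, and 28.5% and 29% in EpiLCs. Without DAC203 the ESC counts were 12 and 17, beside 2353 and 2860 of 12689 over all genes. The median outside chromosome 4 then went from −0.26 to −0.08. In ESCs the share called lower outside chromosome 4 thus stood near that of all genes. Reads were mapped to mm10, a B6 genome, and near-identical copies can exchange reads. A median of 61.4% of the 50-base windows of these 16 transcripts also occurred in another gene, against 3.98% over all 115, so values of single genes in the cluster are uncertain.

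Zfp993 had the largest ESC difference. It read 54.97, 47.1 and 47.4 in B41, B44 and B51, and 13.7, 9.03 and 9.48 in D29, D55 and DAC203. All D2 lines lay far below all B6 lines, and the difference was −2.13 ± 0.15 (limma adjusted p = 9.82e-06). In EpiLCs Zfp993 read 31.3, 38.9 and 29.6 in the same order of B6 lines and 11.2, 9.32 and 9.05 in the D2 lines (−1.65 ± 0.12, limma adjusted p = 3.49e-07). Its transcript shares 86.8% of its windows with other genes, most with Zfp991. Zfp989, at 71.1% shared, read 30.6, 38.8 and 35.8 in B6 ESCs and 9.602, 10.5 and 6.14 in D2 ESCs. It differed by −1.91 ± 0.18 in ESCs and −1.92 ± 0.11 in EpiLCs, where B6 lines read 63.5 to 74.5 and D2 lines 14.7 to 20.3. Zfp992 (43.0% shared) fell by 1.80 in ESCs, from 120.2 ± 3.74 to 34.8 ± 10.2 (SD, n = 3 lines each), and by 1.71 in EpiLCs, from 101 ± 4.34 to 30.3 ± 4.16. No line of either strain crossed over for any of these genes.

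Zfp984 and Zfp991, in the same cluster, were lower in D2 with a wide D2 spread in ESCs. Zfp984 read 52.1, 53.1 and 49.8 in B6 ESCs and 13.5, 24.97 and 7.42 in D29, D55 and DAC203 (−1.84 ± 0.32). In EpiLCs its D2 lines read 22.9, 16.1 and 19.8 against 49.9 to 54.2 in B6. Zfp991, 86.7% shared, read 34.2, 33.5 and 34.9 in B6 ESCs and 10.2, 20.1 and 4.73 in D2 ESCs. DAC203 was lowest and D55 highest of the D2 lines for both genes. Zfp991 had the largest drop of all members in EpiLCs, −1.96 ± 0.21, from 60.3 ± 6.42 to 15.2 ± 5.23. Zfp980 and Zfp979 followed the same direction. Zfp980 (71.3% shared) fell by 0.93 in ESCs and by 0.80 in EpiLCs, and Zfp979 (23.6% shared) by 0.70 and 0.92 (0.42 in ESCs without DAC203). Zfp987, with 92.1% of its windows shared, read 34.0 to 90.5 in D2 ESCs around a B6 range of 54.0 to 67.6 and passed in neither state.

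Zfp990 and Zfp985 lie in the same cluster and, with all lines, had a call in 1 state only. Zfp990, at the proximal end (25.95% shared), read 47.1, 58.7 and 52.7 in B6 ESCs and 64.4, 93.8 and 34.2 in D2 ESCs, with overlapping lines. The low D2 value was that of DAC203, and without it the ESC difference of 0.55 was a call (limma adjusted p = 0.0301). In EpiLCs Zfp990 read 42.0, 43.6 and 40.3 in B41, B44 and B51 and 219, 153 and 175 in D29, D55 and DAC203. Every D2 EpiLC line lay above every B6 line, and the difference of 2.08 ± 0.11 was the largest rise of any member (limma adjusted p = 3.78e-08). Zfp985 showed the reverse order of states. Its B6 ESC lines read 54.7, 67.1 and 63.7 and its D2 ESC lines 16.4, 22.9 and 9.26, a difference of −1.95 ± 0.25. In EpiLCs its B6 lines read 44.5 to 45.3 and its D2 lines 31.7 to 44.8, and the difference of −0.23 did not pass (limma adjusted p = 0.0866). Zfp985 shares 16.2% of its windows with other genes.

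Of all 14 clusters, 11 had a median below 0 in ESCs, with or without DAC203, and 13 in EpiLCs. On chromosome 17, 12 genes between 21567008 and 22867134 had 1 higher and 4 lower of 11 in ESCs and 10 lower of 12 in EpiLCs, with medians of −0.40 and −0.72 (2 higher, 2 lower and −0.21 in ESCs without DAC203). Within it Zfp942 fell by 1.07 in ESCs and by 1.35 in EpiLCs, while Zfp945 rose by 0.63 in ESCs. A chromosome 2 cluster of 6 genes had 2 lower of 5 in ESCs and 4 lower and 1 higher of 6 in EpiLCs. On chromosome 7, 8 genes between 41633203 and 43618285 had 1 higher and 2 lower in ESCs (1 and 1 without DAC203) and 1 higher and 5 lower in EpiLCs. The second chromosome 17 cluster, with 8 genes, had 2 and 5 lower. A chromosome 10 cluster and a chromosome 13 cluster (67121660 to 67687071) had 1 and 2 lower in ESCs and 2 and 3 lower in EpiLCs, with none higher. Not every cluster had mostly lower calls. On chromosome 7, 4 genes between 127244274 and 127406822 had no call in ESCs and 2 higher in EpiLCs, with medians of 0.12 and 0.36. The other chromosome 13 cluster, of 3 genes, had no call in either state, with medians of 0.09 and −0.21 (1 higher and 0.47 in ESCs without DAC203), and a chromosome 8 cluster of 3 genes had 1 higher (Zfp961) in ESCs and 1 higher and 1 lower in EpiLCs. The 5 genes of a chromosome 6 cluster had 2 higher (Zfp777 and Zfp956) in ESCs and 1 lower (Zfp746) in EpiLCs. Of 5 genes on chromosome 8 between 69209038 and 69791178, Zfp930, Zfp868 and Zfp869 were lower in D2 ESCs, and Zfp930, Zfp963 and Zfp866 in D2 EpiLCs. Zfp930 read 9.86 to 12.2 in B6 ESCs and 4.93 to 9.84 in D2 ESCs, and 24.8, 30.8 and 26.5 against 12.1, 17.004 and 12.8 in EpiLCs. Its lines came close in ESCs, where it was no call without DAC203 (−0.42, limma adjusted p = 0.0522), and were well apart in EpiLCs. Zfp931 on chromosome 2 was lower in both states, with 6.50 to 7.06 in B6 and 2.18 to 4.09 in D2 ESCs and 4.07 to 5.22 and 1.96 to 2.50 in EpiLCs. Zfp972, in the same cluster and only in the EpiLC table, was the exception there, with 0.663 to 1.27 in B6 and 1.71 to 3.09 in D2. The 31 genes outside any cluster, defined as 3 or more members with gaps under 1 Mb, split 5 higher to 3 lower in ESCs and 6 to 9 in EpiLCs. Genes with under 20% of their windows shared had 9 higher and 19 lower of 74 in ESCs (10 and 15 without DAC203). In EpiLCs they had 9 and 32 of 75. Of all genes, 17.3% were called higher and 20.3% lower in ESCs, and 28.5% and 29% in EpiLCs.

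**Figure D2:**
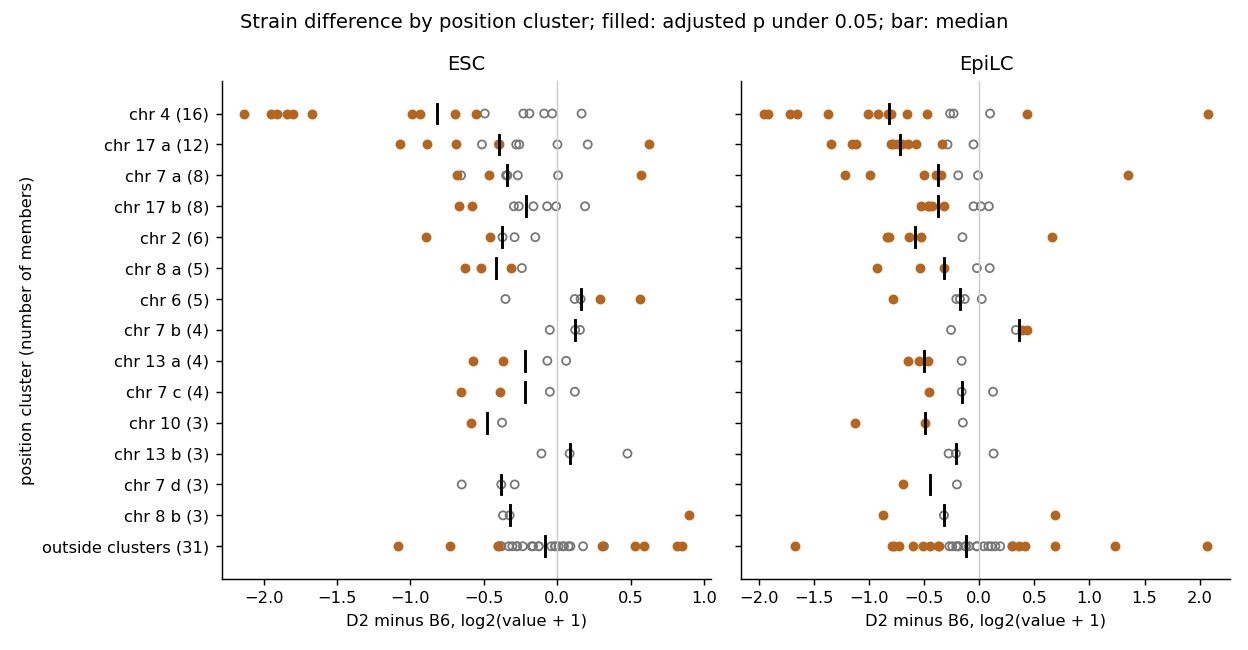
Strain difference (x axis, D2 minus B6, log2(value + 1)) of each zinc finger gene by position cluster (y axis, with the number of members), in ESCs (left) and EpiLCs (right). Filled points passed limma at an adjusted p under 0.05 and bars are medians; the chromosome 4 cluster has the lowest median, −0.82, in both states.

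Among members with a known role in retroviral silencing, directions differed. Zfp809, which recognises the proline primer binding site of retroviruses and silences them in stem cells, read 11.8, 12.9 and 12.4 in B6 ESCs and 21.4, 23.5 and 13.8 in D29, D55 and DAC203. All D2 lines lay above all B6 lines, DAC203 only just (0.59 ± 0.18, limma adjusted p = 0.0267). In EpiLCs its B6 lines read 11.7 to 13.9 and its D2 lines 20.2 to 21.9 (0.68 ± 0.09). Zfp961, which recognises a lysine primer binding site, had the largest ESC rise. It read 36.7, 40.2 and 40.6 in B6 ESCs and 78.0, 84.5 and 60.8 in D2 ESCs (0.90 ± 0.12, limma adjusted p = 0.000525), and 43.0 ± 2.95 and 69.6 ± 4.19 (SD, n = 3) in EpiLCs. Neither gene shared any 50-base window with another gene. Zfp932, which silences endogenous retroviruses together with its paralog Gm15446, went the other way, with 14.1, 16.2 and 14.4 in B6 ESCs and 8.69, 11.9 and 6.00 in D2 ESCs (−0.73 ± 0.20). It fell by 0.79 in EpiLCs, and 52.3% of its windows occur in Gm15446.

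Zfp951, Zfp839 and Zfp827 lie outside the clusters, and Zfp787 and Zfp719 in clusters on chromosome 7. Zfp951 on chromosome 5 was the largest drop outside chromosome 4. It read 27.5, 31.3 and 29.5 in B6 ESCs and 14.3, 17.5 and 9.397 in D2 ESCs (−1.08 ± 0.19), and 28.6, 36.0 and 30.5 against 10.9, 7.79 and 9.24 in EpiLCs (−1.67 ± 0.12). Strain lines were apart in both states, and only 0.923% of its windows are shared. Zfp839 read 14.3, 12.7 and 12.04 in B6 ESCs and 23.7, 21.8 and 27.7 in D2 ESCs (0.85 ± 0.12). Zfp827, whose protein recruits the NuRD complex to telomeres, read 5.43 to 6.57 in B6 ESCs and 9.01 to 13.7 in D2 ESCs (0.82 ± 0.16). Zfp787 fell by 0.66 in ESCs, from 4.89 ± 0.831 to 2.71 ± 0.236. Zfp719 fell by 0.68 there, but its D55 line at 8.82 overlapped B41 at 8.49, and without DAC203 it was no call (−0.47, limma adjusted p = 0.0640). In EpiLCs Zfp719 read 29.6 ± 2.09 in B6 and 20.7 ± 1.93 in D2 (SD, n = 3 lines each), fell by 0.50 and had no overlap of lines.

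The strain difference itself differed between ESCs and EpiLCs for 24 of 107 genes by a limma interaction contrast, where 36% of all genes tested passed. For 9 the difference was more positive in EpiLCs and for 15 more negative, beside 20% and 16% of all genes. Leaving out a line in both states gave 6 to 11 and 9 to 22, with 9 more negative without B41 and 22 without DAC203. Zfp750, a regulator of epidermal differentiation, had the largest such difference, 2.47 ± 0.22 (limma adjusted p = 1.33e-06). In ESCs it read 7.73, 6.85 and 6.69 in B6 and 4.24, 5.53 and 5.62 in D2, and in EpiLCs 2.74, 3.34 and 3.77 in B41, B44 and B51 and 12.9, 18.5 and 20.1 in D29, D55 and DAC203. D2 lines thus lay below all B6 lines in ESCs and above all of them in EpiLCs. The ESC call of −0.41 had an adjusted p of 0.0493 by limma.

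Zfp990 and Zfp985 followed with differences of 1.91 ± 0.42 and 1.71 ± 0.35 between the states. Zfp819, a KRAB gene of pluripotent cells that represses retroelements, read 10.45, 11.7 and 10.36 in B6 ESCs and 11.6, 9.10 and 5.39 in D2 ESCs, which overlap. In EpiLCs its B6 lines read 3.90, 4.38 and 4.50 and its D2 lines 14.3, 9.79 and 13.6, all higher (1.35 ± 0.14), and the contrast between states was 1.69 ± 0.28. Zfp710 read 129.7 to 149 in B6 ESCs and 136 to 155 in D2 ESCs, with overlapping lines. In EpiLCs it read 31.3 to 39.1 in B6 and 75.8 to 98.8 in D2 (1.23 ± 0.11). On the other side Zfp839, at −1.10 ± 0.17, rose in D2 ESCs only by the calls and read 5.83 to 6.52 in B6 and 4.37 to 5.602 in D2 EpiLCs. Zfp800 read 6.22 to 7.17 in B6 and 7.35 to 10.6 in D2 ESCs, not a call with all lines, and fell by 0.77 in EpiLCs. Without DAC203 its ESC difference of 0.41 passed (limma adjusted p = 0.0495). Zfp746, which encodes the parkin substrate PARIS, read 12.4 to 13.7 and 13.9 to 14.9 in ESCs, and fell in EpiLCs from 19.1 ± 0.427 to 10.7 ± 1.23.

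**Figure D3:**
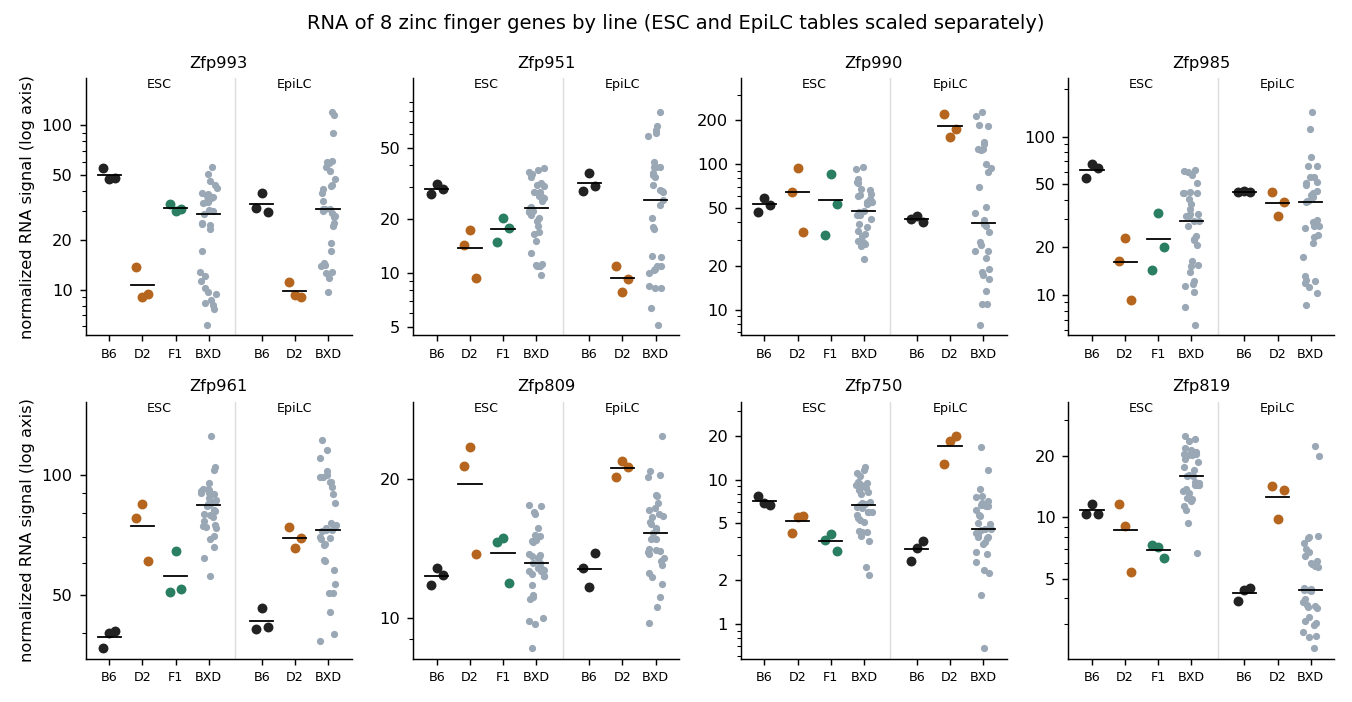
Normalized RNA signal (y axis, log scale) of 8 zinc finger genes in each line: 3 B6, 3 D2, 3 F1 and 33 BXD lines in ESCs and 3 B6, 3 D2 and 33 BXD lines in EpiLCs; F1 values are from the table that holds the F1, bars are means (medians for BXD), and each panel has its own range. Zfp990, Zfp750 and Zfp819 have all D2 lines above all B6 lines only on the EpiLC side. Zfp993 and Zfp951 are lower in D2 on both sides.

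In ESCs the F1 mean lay between the parental means for 62 of 109 genes (56.9%), beside 54.1% of all genes. It lay above both for 17 (15.6%), beside 24.95% of all genes, and below both for 30 (27.5%), beside 20.99%. The differences between these shares were not tested. Zfp719, for one, read 4.52, 6.83 and 4.47 in the F1, against a mean of 6.34 in D2 and 10.5 in B6. Against the parental midpoint (log2 scale) 1 of 109 passed by limma, the 1 lower, where 3.29% of all genes passed, 1.97% higher and 1.32% lower. The median difference from the midpoint was −0.03, against 0.02 over all genes. The gene was Zfp750, which read 3.81, 4.23 and 3.21 in F116, F117 and F124, below the 6.71 to 7.75 of B6 and the 4.25 to 5.63 of D2 in the same table. Every F1 line lay below every parental line (−0.57 ± 0.12, limma adjusted p = 0.0263). Without DAC203 7 genes passed, all lower in the F1, where 706 of all 12701 genes were called higher and 477 lower. Without any B6 line, F116 or F124 none of the members passed. Against B6, 5 genes were higher and 8 lower in the F1, where 17.9% of all genes passed (9.85% higher and 8.02% lower). Against D2, 6 were higher and 2 lower, where 15.7% passed (9.09% and 6.62%).

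Zfp993, Zfp799, Zfp839 and Zfp961 differed from both parents and lay between them. Zfp993 read 33.05, 30.3 and 30.7 in the F1, between 47.2 to 55.1 in B6 and 9.05 to 13.7 in D2. Zfp799 read 21.8, 22.7 and 22.2, between 26.8 to 29.2 in B6 and 15.99 to 18.5 in D2. Zfp961 read 50.8, 64.5 and 51.7, and 1 of these F1 values exceeded the lowest D2 value of 61.0. Within the chromosome 4 cluster F117 was the highest F1 line for Zfp984 (49.4, against 18.2 and 35.2), Zfp989 (26.05, against 11.97 and 22.9), Zfp992 (99.7, against 56.8 and 80.4) and Zfp990 (85.0, against 32.6 and 52.9). F116 was lowest for all of these.

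Across the 33 BXD lines, lines that were high in ESCs tended to be high in EpiLCs for some genes. Spearman's rho between the states passed for 17 of 107 genes, all positive, where 9.18% of all genes passed in either direction (8.94% positive and 0.238% negative) by a permutation test with 100000 shuffles. The median rho was 0.20, against 0.11 over all genes. Zfp951 had the highest value, rho = 0.77 (Pearson's r = 0.81, and 0.77 without the 2 lines farthest from the median), with a permutation p of 1e-05, the smallest these shuffles can give, and an adjusted p of 0.000455. Zfp738 followed at 0.72 with the same p. Zfp992 reached 0.68, Zfp786 0.64 and Zfp989 0.63, with permutation p-values of 3e-05, 7e-05 and 0.00012. The lowest were Zfp810 (−0.32), Zfp800 (−0.31), Zfp710 (−0.30), Zfp952 (−0.29) and Zfp703 (−0.25), none of which passed. As a check of line identity, all 33 lines correlated best with their own line in the other state over the 252 most variable genes.

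**Figure D4:**
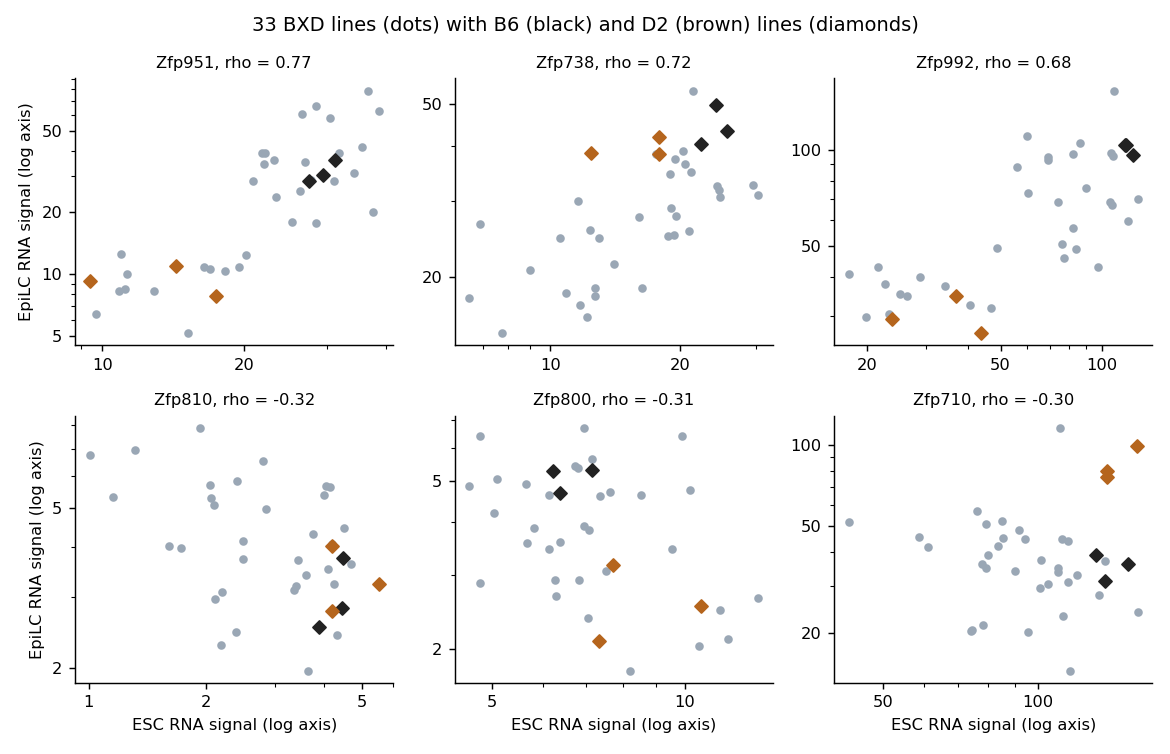
RNA signal in EpiLCs (y axis) against ESCs (x axis), both on log scales, of the 33 BXD lines (dots) and the B6 and D2 lines (black and brown diamonds) for the 3 genes with the highest and the 3 with the lowest rho. Zfp951 and Zfp992 form a low group beside the D2 lines and a high group beside the B6 lines in both states, and Zfp810, Zfp800 and Zfp710 show no such order.

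For genes with a strain call and no overlap of parental lines, BXD lines fell on both sides of the midpoint of the parents. Over 40 such genes in ESCs a median of 16 of 33 lines was nearer to D2, and over 67 in EpiLCs a median of 15, with a range of 1 to 33 in both. Zfp993 had 12 ESC lines on the D2 side, and its lines ran from 6.15 to 55.4 with a median of 28.7. Zfp951 had 11 in ESCs and 12 in EpiLCs, with 5.16 to 78.8 in EpiLCs. Zfp990 in EpiLCs had the widest spread of all members, from 7.90 to 226 (SD 1.37 on the log2 scale), with 17 lines below every parental line and 12 nearer to D2. Zfp809 had 5 lines on the D2 side in ESCs and 12 in EpiLCs, and its ESC lines ran from 8.61 to 17.6, under the 2 higher D2 lines. For Zfp750 in EpiLCs 3 lines were nearer to D2, with a range of 0.679 to 16.8 and a median of 4.56. Zfp710 in ESCs had 30 of 33 lines below every parental line, and Zfp738 in EpiLCs 31 of 33. Zfp961 stood at 1 extreme, with all 33 ESC lines nearer to D2 and 15 above every parental line. Zfp819 in ESCs had 29 of 33 lines above every parental line, 6.72 to 25.1 against 5.39 to 11.7 in the parents. Lines outside the parental range were common in general, with a median per gene of 12 lines for the zinc finger genes and 16 for all genes in ESCs, and 15 and 19 in EpiLCs. Whether BXD and parental libraries were made together was not stated in the labels.

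Neighbours moved together over the BXD lines. Pairs of members under 1 Mb apart had a median rho of 0.38 in ESCs (222 pairs) and 0.47 in EpiLCs (240 pairs), while pairs on different chromosomes had 0.11 and 0.23. These values are given as a description, since pairs share genes, libraries and, within clusters, sequence. Zfp979 and Zfp989 reached 0.93 in ESCs, and Zfp936 and Zfp977 0.94 in EpiLCs. Some neighbours ran in opposite directions, among them Zfp990 and Zfp992 with −0.47 and Zfp809 and Zfp810 with −0.51 in ESCs, and Zfp870 and Zfp871 with −0.75 in EpiLCs. In EpiLCs the members also shared a shift between lines. Their median deviation per line ran from −0.46 in BXD161 to 0.25 in BXD71, while that of all genes ran from −0.09 to 0.04. Over the 33 lines it followed the summed signal of the library, with Pearson's r = 0.74 (permutation p = 2e-05, and r = 0.76 without the 2 farthest lines) and Spearman's rho = 0.82 (permutation p = 1e-05, the smallest possible). In ESCs the same r was −0.10 and rho 0.03 (permutation p = 0.599 and 0.872). EpiLC correlations between members carry this shared shift.

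Chromatin at the promoters was read by ATAC-seq, which marks open DNA through a transposase, with values tested on log2(value + 0.1) and regions within 1 kb of the gene's start. In ESCs 56 of 101 members with such a region passed, where 47.7% of all genes did. The split was 44 higher and 12 lower in D2, beside 39.7% and 7.99% of all genes, and all-gene promoters had a median difference of 0.15, against 0.16 for the members. In EpiLCs 62 of 105 passed, with 11 higher and 51 lower, where 70.1% of all genes passed, 3.53% higher and 66.6% lower, and the medians were −0.19 over all genes and −0.14 over the members. The overall direction at the members therefore followed that of all promoters in each state. The large single differences lay at a few genes. The B6 and D2 libraries of this assay had 16300000 to 24300000 reads within the regions.

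The members whose promoter signal fell most in D2 were Zfp986 and Zfp970. At Zfp986 in the chromosome 4 cluster, accessibility read 1.93, 2.19 and 1.99 in B41, B44 and B51 in ESCs and 0, 0 and 0.0437 in D29, D55 and DAC203. In EpiLCs it read 1.67 to 1.91 in B6 and at most 0.108 in D2. At Zfp970 on chromosome 2 it read 1.83, 2.32 and 3.07 in B6 ESCs and 0.244, 0.577 and 0.306 in D2 ESCs, and in EpiLCs 9.52 ± 0.708 in B6 against 0.073 ± 0.0945 in D2. Some D2 libraries read 0 at these promoters, and all strain lines were apart. RNA of both genes was still read in D2. Zfp986 RNA read 20.6, 22.98 and 14.7 in D2 ESCs against 27.9 to 29.3 in B6, and Zfp970 RNA 12.9, 19.8 and 11.9 against 16.998 to 21.3. Of the Zfp986 and Zfp970 transcripts, 86.4% and 52.2% of the windows occur in other genes. Whether strain variants entered the mapping to mm10 was not stated in the labels, and their effect on these values was not tested.

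Zfp951 was lower in promoter accessibility and in RNA in both states. Its promoter read 17.3, 16.4 and 16.4 in B6 ESCs and 3.66, 3.55 and 4.07 in D2 ESCs (−2.13 ± 0.10, limma adjusted p = 3.30e-12), and 17.3 ± 1.44 and 3.78 ± 0.202 in EpiLCs. Zfp984, Zfp978 and Zfp991 in the chromosome 4 cluster were also lower in both, with ESC accessibility of 20.7 ± 0.364 against 8.57 ± 0.384, 7.76 ± 0.34 against 2.78 ± 0.265, and 1.78 ± 0.118 against 0.458 ± 0.132. Promoters of Zfp960 (15.8 ± 0.949 in B6 and 32.4 ± 1.06 in D2 ESCs), Zfp990 (4.75 ± 0.649 and 7.86 ± 1.15) and Zfp981 (6.08 ± 0.786 and 8.94 ± 0.545) were higher in D2. In EpiLCs the Zfp990 promoter read 9.56 to 12.99 in B6 and 19.8 to 20.96 in D2. Zfp710, whose EpiLC RNA was higher in D2, had a lower promoter there, 51.9 ± 1.25 in B6 and 43.2 ± 2.64 in D2. Of 26 members with lower RNA in D2 ESCs, 8 had lower accessibility (30.8%, beside 18.02% of all genes with lower RNA) and 7 higher (26.9%, beside 29.9%). Of 10 with higher RNA 9 had higher accessibility, beside 50.03% of all genes with higher RNA. In EpiLCs 31 of 50 with lower RNA had lower accessibility, beside 76.7% of all such genes. Of 12 with higher RNA there 6 had higher accessibility, beside 7.84%. These shares were not tested.

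**Figure D5:**
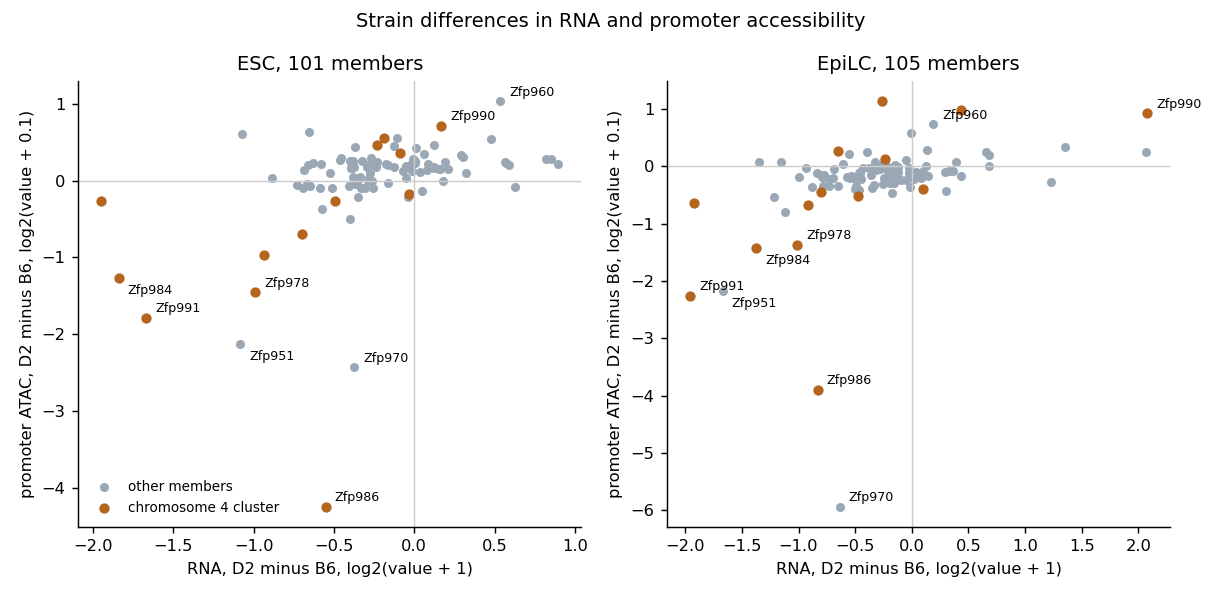
Strain difference in promoter accessibility (y axis, log2(value + 0.1)) against that in RNA (x axis, log2(value + 1)) for 101 members in ESCs (left) and 105 in EpiLCs (right), with the chromosome 4 cluster in brown. Zfp986 and Zfp970 have far larger differences in accessibility than in RNA, and Zfp951, Zfp984, Zfp978 and Zfp991 are low in both.

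The promoters of 3 genes with lower accessibility in D2 are shown, since each lies in a region that differed between the strains. They are the 250 bases before the start, from RefSeq on GRCm38.p6, written 5′ to 3′ on the strand of the gene. Capitals mark CCAAT or its complement ATTGG, and CCGGAAG or its complement CTTCCGG. Zfp970 is at chr2:177464492-177464741 on the plus strand, Zfp951 at chr5:104860028-104860277 on the minus strand and Zfp984 at chr4:147809789-147810038 on the minus strand.
Zfp970: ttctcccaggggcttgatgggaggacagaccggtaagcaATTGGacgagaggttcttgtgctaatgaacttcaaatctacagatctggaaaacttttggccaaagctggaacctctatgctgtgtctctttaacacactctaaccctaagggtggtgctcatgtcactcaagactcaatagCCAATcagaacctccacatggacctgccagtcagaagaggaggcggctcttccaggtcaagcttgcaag
Zfp951: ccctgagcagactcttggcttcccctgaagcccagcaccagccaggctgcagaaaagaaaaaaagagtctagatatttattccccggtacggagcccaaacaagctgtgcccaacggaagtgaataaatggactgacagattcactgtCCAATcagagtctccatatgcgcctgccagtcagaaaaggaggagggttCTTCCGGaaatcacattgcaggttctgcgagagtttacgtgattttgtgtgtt
Zfp984: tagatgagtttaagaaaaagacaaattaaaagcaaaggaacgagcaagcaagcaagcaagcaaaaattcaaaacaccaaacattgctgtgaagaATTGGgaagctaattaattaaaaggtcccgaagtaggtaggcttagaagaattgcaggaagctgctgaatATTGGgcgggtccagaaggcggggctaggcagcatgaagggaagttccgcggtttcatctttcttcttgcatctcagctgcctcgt
All 3 carry at least 1 CCAAT box on either strand. Among the 99 members with a RefSeq promoter entry, 68 did (68.7%), while 34.5% of 27025 promoters of the same length did. CCGGAAG, the core of ETS factor sites, occurred in 13.1% of the members and 7.05% of all promoters, and TATAAA in 3.03% and 12.97%. SP1's GGGCGG occurred in 39.4% and 32.9%. A match is a description of the letters, not a measured binding site.

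Across BXD lines the RNA of some members followed the accessibility of their own promoter. In ESCs 23 of 101 had a positive and 3 a negative rho that passed a permutation test, where 18.5% of all genes passed (17.7% positive and 0.771% negative). The highest were Zfp786 (0.84), Zfp985 (0.82), Zfp738 (0.79) and Zfp951 (0.76), and the negative ones Zfp942 (−0.60), Zfp748 (−0.60) and Zfp740 (−0.48). In EpiLCs 19 of 105 were positive and 1 negative, where 14.9% of all genes passed (13.9% and 1.02%). Zfp990 (0.84), Zfp989 (0.79), Zfp951 (0.79) and Zfp750 (0.76) led there, and the negative one was Zfp870 (−0.54). The same 33 lines were used in all of these correlations.

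TRIM28 was mapped by ChIP-seq in B6 and D2 ESCs only, 3 lines each. TRIM28, SETDB1 and HP1 are known to coat the 3′ ends of many zinc finger genes, over the exon that encodes the fingers. A TRIM28 region overlapped 103 of the 115 members (89.6%) and 91.9% of other genes in the tables. On the last coding exon it did so for 38 members (33.04%), against 26.6% of other genes and 37.4% of other genes with at least 3 fingers. Members with a KRAB pattern had such a region in 26 of 94 (27.7%) and those without it in 12 of 21 (57.1%). Region values are normalized signals, from libraries with 5630000 to 17100000 reads in regions.

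The strongest regions at members lay at Zfp982, at Zfp934 and Zfp935, at Zfp771, at Zfp979 and at Zfp951. The Zfp982 region at chr4:147478675-147493217 covers the start of the gene and read 149 to 178 in B6 and 170 to 231 in D2, which overlap. The region at chr13:62531504-62549275 lies in both Zfp934 and Zfp935 and read 121 to 132 in B6 and 158 to 181 in D2 (0.42 ± 0.10, limma adjusted p = 0.000938). That at Zfp771 read 143 ± 10.3 and 137 ± 9.23, and a region inside Zfp951 129.9 ± 13.7 and 117.2 ± 15.7, neither a call. At Zfp979 the B6 lines read 191, 186 and 190 in B51, B41 and B44, and the D2 lines 64.7, 64.6 and 69.4 in D55, DAC203 and D29. This region lost most of its signal in D2, with a difference of −1.51 ± 0.10 (limma adjusted p = 5.78e-16), and it covers the start of the gene. Over all 312 regions in members, 133 differed between strains, 44 higher and 89 lower in D2, where 27.2% of regions in all genes differed, 16.1% higher and 11% lower.

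On last coding exons, 20 of 43 regions were lower in D2 and 8 were higher, beside 69 and 36 of the 269 elsewhere in members. The share on last coding exons of other genes was not counted. What mapping to mm10 and shared sequence add to these values was not tested. The Zfp992 region at chr4:146468194-146471274 fell from 66.3, 68.4 and 66.5 in B41, B44 and B51 to 13.99, 11.998 and 11.4 in D29, D55 and DAC203. Zfp988 fell from 95.2 ± 4.29 to 33.02 ± 1.55 and Zfp978 from 22.3 ± 1.25 to 4.06 ± 1.28, both in the chromosome 4 cluster, the Zfp988 region lying mostly past the end of the gene. Outside it, Zfp951 fell from 64.5 ± 4.15 to 22.8 ± 4.18, Zfp936 from 55.4 ± 2.91 to 17.2 ± 3.77, Zfp777 from 54.6 ± 7.72 to 24.2 ± 0.964 and Zfp706 from 56.4 ± 3.22 to 31.9 ± 3.09. D2 lines lay below all B6 lines at each of them. Zfp703, Zfp865 and Zfp870 were higher in D2, with 17.1 ± 3.001 against 23.7 ± 2.72, 19.2 ± 1.82 against 26.7 ± 1.58 and 15.6 ± 0.933 against 21.6 ± 0.666. RNA and TRIM28 were lower together in D2 ESCs at Zfp992, Zfp978 and Zfp951. At Zfp988 and Zfp936, where TRIM28 was lower too, the RNA differences of −0.03 and −0.66 were no calls. Zfp706 RNA had no call, and Zfp777 RNA was higher by 0.29, while TRIM28 was lower at both.

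Some of these regions lie over finger exons that are built of a repeat. There each finger is joined to the next by a linker whose coding letters are conserved over 14 bases, searched here as the zinc finger linker motif. Of the 43 regions on last coding exons, only 18 held 2 such linkers 84 bases apart. The stretches shown, on GRCm38, run from 1 linker to the next, 84 bases on, on the strand of the gene. They are shown since they lie in TRIM28 regions on last coding exons, 4 of which were lower in D2 (Zfp951, Zfp936, Zfp978 and Zfp787) and 1 of which did not pass (Zfp961). Capitals mark the linkers. The positions are chr5:104814419-104814516 (minus), chr7:43189960-43190057 (plus), chr4:147390835-147390932 (plus), chr7:6132805-6132902 (minus) and chr8:71968473-71968570 (plus).
Zfp951: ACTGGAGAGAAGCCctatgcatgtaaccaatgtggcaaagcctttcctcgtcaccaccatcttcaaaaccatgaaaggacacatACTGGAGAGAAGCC
Zfp936: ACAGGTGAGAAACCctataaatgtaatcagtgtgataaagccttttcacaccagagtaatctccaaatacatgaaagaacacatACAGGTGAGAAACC
Zfp978: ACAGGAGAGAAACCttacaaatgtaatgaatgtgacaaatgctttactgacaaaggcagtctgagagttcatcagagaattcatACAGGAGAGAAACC
Zfp787: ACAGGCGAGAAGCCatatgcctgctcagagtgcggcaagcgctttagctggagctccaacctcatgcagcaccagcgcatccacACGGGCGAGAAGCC
Zfp961: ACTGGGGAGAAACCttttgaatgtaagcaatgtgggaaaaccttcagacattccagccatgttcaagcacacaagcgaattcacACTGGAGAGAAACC
That motif, searched on both strands, occurred in the central 300 bases of 13 of 43 regions on last coding exons of members (30.2%). It did so in 13 of all 312 regions in members (4.17%) and in 147 of all 94211 regions (0.156%). The linkers are coding sequence of these exons, so a higher share there follows from the choice of regions and says nothing about TRIM28. The region at Zfp961 read 20.3 ± 0.998 in B6 and 18.4 ± 0.645 in D2, and that at Zfp787 33.5 ± 12.8 and 11.3 ± 1.81.

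The genes of the silencing machinery that KRAB proteins use were read beside the members. Of a list of 33, which also holds Zfp809, 30 were tested in each state, with 5 higher and 8 lower in D2 ESCs and 9 higher and 8 lower in D2 EpiLCs. These are 43.3% and 56.7% of the list, near the 37.6% and 57.5% of all genes. Trim28 itself was higher in D2 by 0.31 ± 0.09 in ESCs and by 0.25 ± 0.08 in EpiLCs. Cbx3, which encodes the HP1 gamma protein, fell by 0.55 and 0.63, and Chd3, a NuRD remodeller, by 0.64 and 0.94. Setdb1 passed in neither state, at −0.17 ± 0.07 and −0.09 ± 0.08. Zfp57, the KRAB protein that maintains imprints, was higher by 0.71 ± 0.10 in EpiLCs and read −0.08 ± 0.12 in ESCs.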

How the data were processed

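For RNA the authors deposited 1 signal value per gene and library, with library totals close to 1000000. ATAC and TRIM28 tables hold a deposited signal per region, divided by a factor per library. There 100% of the values were whole reads after division by the smallest step (tolerance 0.01). Mapping to mm10 used HISAT2 2.0.5 or Bowtie 1.0.0 and peak calling MACS 1.4.2, per the submitters' processing notes, which do not say which tool served which assay. Counter, annotation, strand setting and use of strain variants: not given in the sources used here. Group and line came from the labels.

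Strains were compared with limma 3.58.1 (trend, robust) in R 4.3.3 on log2(value + 1) for RNA, with a mean of at least 0.5, and on log2(value + 0.1) for regions, with Benjamini-Hochberg adjustment over the whole table. The edgeR 4.0.16 quasi-likelihood test on recovered reads was an alternative: it called 60 promoters of members in ESCs, 57 in EpiLCs and 140 TRIM28 regions. Other alternatives were another pseudocount, no filter, quantile and median-ratio scaling, limma without trend, a replicate block and leaving out libraries. BXD correlations used scipy 1.17.1 with 100000 shuffles. Coordinates come from the files (mm10) and a GENCODE annotation and genome of the same build. Fingers and KRAB boxes were searched in the translated coding sequences. Shared windows count 50-base stretches found in transcripts of other genes. Scripts were tested on simulated data.

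Members and lists were chosen with earlier results of these data known. Values are named for up to 5 members per direction and comparison with the largest differences, the 5 highest levels, the extremes of rho, the 5 strongest TRIM28 regions and members of known role; others were named after their values were seen. Replicate numbers do not pair libraries: deviations of same-numbered libraries correlated between −0.39 and 0.01, and those of the same line in the 2 states between −0.0048 and 0.18.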

Additional observations from a re-analysis of the deposited data

Results flagged for a closer look

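The strain difference (D2 minus B6) differed between EpiLCs and ESCs, by a test of that difference itself, for 24 members. More positive in EpiLCs were Zfp750 (2.47), Zfp990 (1.91), Zfp985 (1.71), Zfp819 (1.69), Zfp710 (1.18), Zfp703 (0.61), Zfp740 (0.53), Zfp868 (0.50) and Zfp869 (0.41), each value being the EpiLC minus the ESC difference on log2(value + 1). More negative in EpiLCs were Zfp839 (−1.10), Zfp800 (−1.09), Zfp820 (−1.01), Zfp788 (−0.92), Zfp827 (−0.91), Zfp746 (−0.90), Zfp976 (−0.87), Zfp871 (−0.72), Zfp994 (−0.72), Zfp995 (−0.70), Zfp945 (−0.68), Zfp759 (−0.58), Zfp956 (−0.55), Zfp867 (−0.54) and Zfp777 (−0.50). Zfp788 had calls in opposite directions, with 7.62, 6.80 and 7.02 in B6 ESCs and 12.5, 13.7 and 7.88 in D2 ESCs, but 13.5 to 15.2 in B6 and 10.8 to 11.5 in D2 EpiLCs. Zfp976, with 27.3% of its windows shared, read 27.1 to 29.3 in B6 and 16.998 to 27.8 in D2 ESCs, and 16.8 to 17.3 and 5.95 to 8.55 in EpiLCs.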

How the results depend on the processing

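The ESC strain comparison depended most on single libraries. Without each library in turn, 19 to 49 members passed, 3 to 13 higher and 15 to 41 lower, with 22 in all without B41, 20 without B51, 19 without B44 and 27 without D29. In EpiLCs 63 to 75 passed. The contrast between states gave 16 to 28, of which 9 to 22 were more negative in EpiLCs. Against the F1 midpoint 0 to 7 passed, 0 to 1 higher and 0 to 7 lower, with 2 without D29 and 2 without F117. ESC promoters were higher in 29 to 48 members, 29 without B6 replicate 2. With the replicate number as a block 30 members passed in ESC RNA, 69 in EpiLC RNA, 40 in ESC and 60 in EpiLC promoter accessibility and 144 regions for TRIM28, and with the line as a block 25 in the contrast between states. Quantile scaling of RNA, an alternative chosen after the data were seen, gave 12 correlations between states in place of 17 and 5 negative correlations of RNA with the ESC promoter in place of 3. Other settings kept each count within 1.5 times. Of 1024 values of named members under the alternatives, 17 changed sign, none of them a call, 53 lost a call and 9 gained one. RNA read depth was not recovered, so a counting limit for the lowest genes is not given.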
